A study of Mus musculus with 8 samples.

Results

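The cells described here were chosen by marker genes as GABAergic interneurons born in the caudal ganglionic eminence. They were taken from single cells of mouse frontal isocortex that had been sorted for a Drd1a-tdTomato reporter (the D1Tom sort). A cell was taken when it had counts of Gad1 or Gad2 and of Adarb2, no count of Lhx6, and not a count of both Meis2 and Pbx3. This held for 749 of 11494 D1Tom cells, in a series of 22876 cells, and they are called Adarb2 cells below. The label matched 535 of these, and matched the others less well or not at all, as described below. Control 1 held 227 of them, control 2 held 163, cKO 1 held 231 and cKO 2 held 128.

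All 4 D1Tom libraries came from mice at postnatal day 7 that carried the Drd1a-tdTomato transgene, an artificial chromosome reporter of the dopamine D1 receptor gene, and 2 floxed copies of Foxp2. The 2 control libraries had no Cre, and the 2 conditional knockout (cKO) libraries also carried Emx1-Cre, which is active in the dorsal forebrain lineage of cortical excitatory neurons and glia and largely spares cortical interneurons. Controls 1 and 2 and cKO 1 were female and cKO 2 was male, and control 1 and cKO 1 were prepared on 1 day (batch 1) and control 2 and cKO 2 on another (batch 2). The labels do not say how many animals a library holds, so p-values measure the spread between these libraries. The study asks how cell type composition and gene expression differ between the genotypes. In the other sort, for a golli-τ-eGFP reporter (GTE), 6 of 11382 cells met the same rule, which is 0.0527%.

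Cortical inhibitory interneurons are born in the ganglionic eminences of the embryonic ventral forebrain and migrate into the cortex. Those of the medial eminence depend on Nkx2-1 and Lhx6 and mostly become Sst or Pvalb cells. Those of the caudal eminence express Nr2f2, Sp8 and Prox1 and become Vip cells, Lamp5 or neurogliaform cells, Reln cells and Cck Sncg basket cells, many of them in upper layers. Adarb2, a member of the RNA-editing deaminase family, marks the caudal group, and Gad1 and Gad2 make GABA.

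Levels are given as CPM, in which the counts of a gene summed over a class of cells in a library are divided by all counts of that class and scaled to a fixed total, and lists of 4 values are in the order control 1, control 2, cKO 1, cKO 2. The summed counts of Adarb2 cells were 2911481, 2575279, 2535172 and 1466648. Their median count per cell was 10979, 15178, 8184 and 10646.5, above that of all other cells in each library, which was 7965, 12643.5, 7134 and 7097. Control 1 stood apart in genes that respond to dissociation: the 10 listed genes, among them Fos and Junb, summed to 555 CPM in its Adarb2 cells and to 108 to 139 CPM in the other 3 libraries. In Adarb2 cells a count of 2 was 1.69, 0.734, 1.57 and 0.348 times as frequent as a count of 1. The deposited values may thus not be plain numbers of molecules, and no interval was taken from sums of counts. Among the Adarb2 cells 1 cell barcode was shared between 2 libraries, control 1 and cKO 1. The Y-linked genes Ddx3y, Eif2s3y and Kdm5d had counts in Adarb2 cells of the male cKO 2 library and in no other.

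Each step of the rule narrowed the cells. Of the D1Tom cells 2855 had Gad1 or Gad2, 953 of these had Adarb2, 924 of these lacked Lhx6, and 749 remained after cells with both Meis2 and Pbx3 were removed. Both Gad1 and Gad2 were present in 434 of the 749, and Meis2 alone of the excluded pair was found in 262 and Pbx3 alone in 70. In 29 cells Gad, Adarb2 and Lhx6 were all present, with a median total count of 20961 per cell, and these were left out by the rule. At the threshold itself, 130 cells had a single Adarb2 count, 114 had a single Gad count, and 42 had both.

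The label was set beside a clustering of all D1Tom cells, which gave 23 clusters. The genes of the rule were not left out of the clustering, so overlap with the rule is in part built in. One cluster of 712 cells had 3 genes of the caudal origin list among its 10 leading genes, which also held Adarb2, Gad1 and Gad2. It had 12 of the list's 16 genes at least 2-fold above all remaining cells, and it is called caudal-origin-like. It held 535 of the 749 Adarb2 cells (71.4%), as 194, 98, 182 and 61 cells per library. A further 66 cells (8.81%) lay in a cluster led by Igfbpl1, Sp9, Dlx2, Pbx3 and Sp8, genes of young neurons and of the ventral forebrain lineage, as 9, 7, 19 and 31 cells. The remaining 148 lay in other clusters, as 24, 58, 30 and 36 cells. Among them 24 lay in an excitatory cluster led by Cyp26b1 and Rgs4. Another 24 lay in a cluster led by Cspg4 and Pdgfra, genes of the oligodendrocyte lineage list, which passed no list and was left unnamed. The data match the label for the 535 cells of the caudal-origin-like cluster. They match it less well for the 66, whose cluster also passed the striatal projection and olfactory list, held 169 cells with both Meis2 and Pbx3, and whose astrocyte list summed to 1623, 2180, 2003 and 1833 CPM. They go against it for the other 148, which carry excitatory and glial genes at the level of other cells: their astrocyte list summed to 1679, 1449, 2383 and 3120 CPM, against 208, 655, 108 and 722 CPM in Adarb2 cells of the caudal-origin-like cluster. The 7 excitatory genes summed to 1125, 982, 1040 and 526 CPM in the 148 cells and to 54.9, 221, 86.1 and 168 CPM in the 535.

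**Figure D1:**
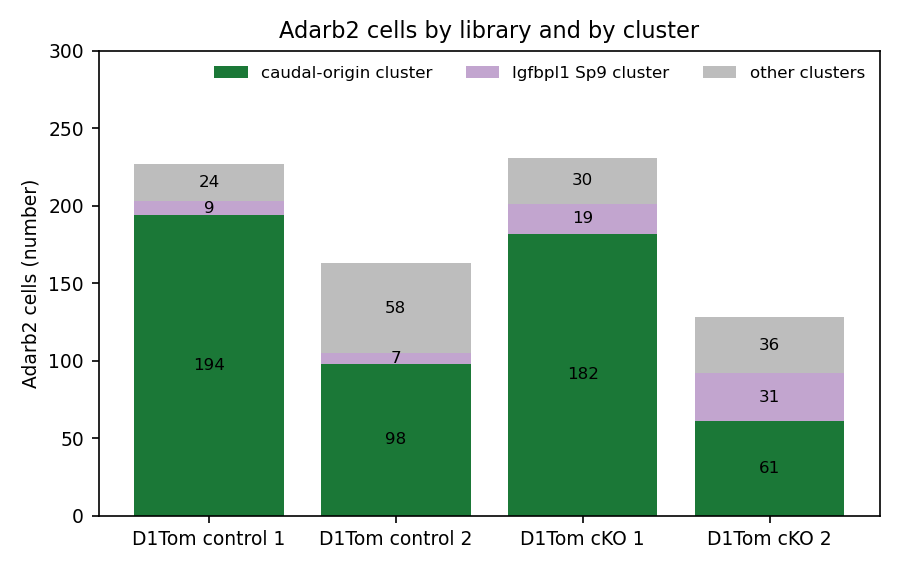
Number of Adarb2 cells in each D1Tom library (y axis, cells), split by the cluster that held them: caudal-origin-like (green), the cluster led by Igfbpl1 and Sp9 (purple) and all other clusters (grey). The green part is the largest in each library and is 194 of 227 cells in control 1 and 61 of 128 in cKO 2.

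Conversely, the caudal-origin-like cluster held 177 cells that did not meet the rule. Of these 78 had no Gad count, 78 had no Adarb2 count, 26 had both Meis2 and Pbx3 and 9 had Lhx6. The 78 without Gad had a median of 2743 counts per cell, against 10744 for the Adarb2 cells of that cluster.

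Cells just inside and just outside the rule were compared by their Adarb2 count, as a description. Adarb2 was not left out of the clustering, so the share by cluster is not independent of this count. The share of cells in the caudal-origin-like cluster was 4.16% of the 1539 Gad cells with no Adarb2, 26.2% of the 130 cells with 1 count, 64.7% of the 116 with 2, 72.4% of the 170 with 3 to 5, 88.1% of the 160 with 6 to 10 and 93.6% of the 173 above 10. None of the 42 cells with a single count of both Gad and Adarb2 lay in that cluster, and Reln was at 18.2 CPM and Neurod6, an excitatory neuron factor, at 421 CPM in them. Prox1, the homeobox factor of caudal interneurons, was at 15.4 CPM just outside and at 68.0, 119, 162, 237 and 220 CPM over the same steps. Slc32a1, the vesicular GABA transporter, went from 16.9 CPM outside to 59.3 CPM at 1 count and 205 CPM above 10. Slc1a3, an astrocyte glutamate transporter, went the other way, from 1314 CPM outside to 1052 CPM at 1 count and 279 CPM above 10.

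Not all genes of the caudal group followed the Adarb2 count in the same way. Cxcl14, a chemokine of caudal interneurons, was at 116 CPM outside the rule, at 80.5 CPM in cells with 1 count and at 3363 CPM in cells above 10. Cnr1, the cannabinoid receptor, was at 358 CPM with 1 count and at 2312 CPM above 10. Reln, the secreted glycoprotein of neurogliaform and Cajal-Retzius cells, was highest at 2 counts of Adarb2, at 1357 CPM, and at 510 CPM in cells above 10. Vip was at 1.63 CPM with 1 count and at 92.7 CPM above 10. The strata pool the 4 libraries, and cells of the 2 batches differ in depth.

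**Figure D2:**
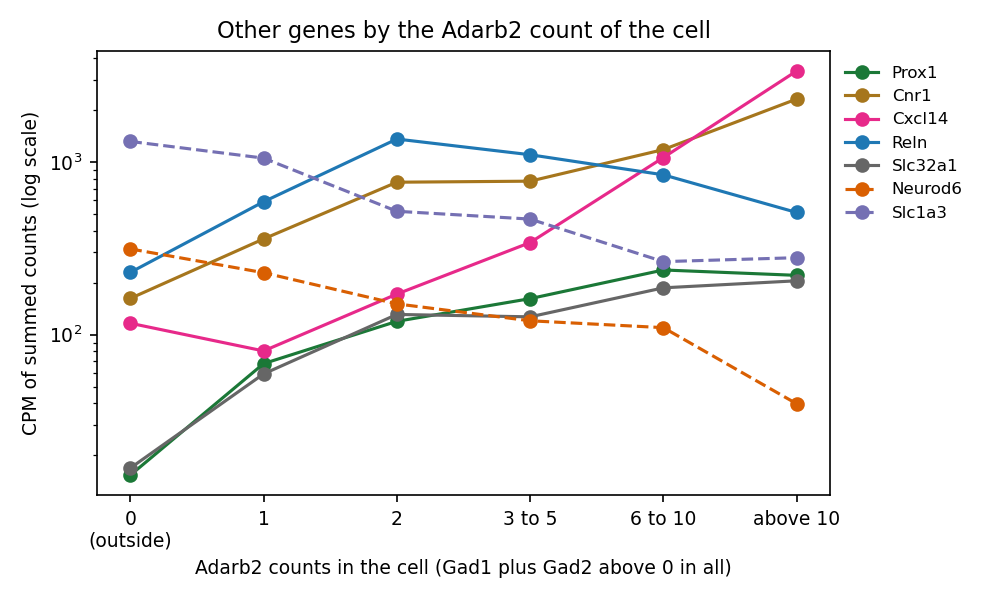
Level of 7 genes (y axis, CPM of summed counts, log scale) in Gad cells grouped by their Adarb2 count (x axis), with the leftmost point for cells just outside the rule. Solid lines are interneuron genes and dashed lines are an excitatory (Neurod6) and an astrocyte (Slc1a3) gene; Cxcl14 reaches 3363 CPM above 10 counts while Neurod6 is at 39.8 CPM there.

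The genes that set Adarb2 cells apart from the other cells of the sort are described next. Since the cells were chosen by their expression, these levels are compared without a test. They pool all 749 Adarb2 cells, including the 148 that go against the label. For comparison, 184 cells had Gad and Lhx6 without Adarb2 (Lhx6 cells, 39, 45, 59 and 41 per library), and 361 had Gad with both Meis2 and Pbx3 (Meis2 Pbx3 cells, 39, 62, 109 and 151).

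Of the transcription factors of the caudal lineage, Prox1 and Sp8 stood far above Lhx6 cells and the others did not. Prox1 was at 205, 153, 164 and 101 CPM in Adarb2 cells and at 4.96, 6.46, 2.98 and 14.4 CPM in Lhx6 cells, a 21.7-fold ratio of the means. Sp8 was at 90.0, 75.7, 136 and 99.5 CPM, a mean of 100.2 against 4.33 CPM in Lhx6 cells, and Meis2 Pbx3 cells had it at a similar mean of 115 CPM. Nr2f2 was at 282, 178, 242 and 122 CPM and overlapped the Lhx6 cells, which had 226 CPM in control 2, so it was the higher in 3 of 4 libraries. Nr2f1, its relative, was at 203 to 277 CPM and 1.86-fold above Lhx6 cells, and Npas1 was at 74.3 to 189 CPM and 1.40-fold above them. Prox1 and Sp8 thus separated the 2 interneuron classes without overlap in any library, while Nr2f1 and Npas1 differed by less than 2-fold in their means.

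Peptides and secreted factors were the next group. Cxcl14 was at 1681, 583, 1246 and 466 CPM in Adarb2 cells and at 53.8 CPM on average in Lhx6 cells, 18.5-fold lower. Batch 1 was the higher in both genotypes. Pnoc, the precursor of nociceptin, was at 262, 167, 219 and 130 CPM and 24.9-fold above all other cells. Igf1, a growth factor made by Vip cells among others, was at 372, 216, 244 and 178 CPM, 14.1-fold above all other cells but 2.41-fold above Lhx6 cells. Sema3c, a secreted guidance cue, was at 258 CPM on average against 17.2 CPM in Lhx6 cells, and Fgf9 at 129 against 32.7 CPM.

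Tac2 and Crh, peptides of Vip cells, were at 44.5 and 38.9 CPM on average in Adarb2 cells against 0.572 and 1.65 CPM in Lhx6 cells. Both varied between libraries more than the transcription factors did: Crh was at 90.0, 17.1, 42.2 and 6.14 CPM and Tac2 at 78.3, 36.1, 41.8 and 21.8 CPM, the batch 1 libraries being the higher for both. Vip itself, one of the markers given for the cell type, was at 70.4, 38.1, 20.5 and 32.0 CPM and had a count in 54 of 749 cells (7.21%, exact binomial 95% interval 5.46 to 9.30). Npy, a peptide of neurogliaform and of Sst cells, was at 988, 472, 546 and 567 CPM in Adarb2 cells and at 16259, 4601, 6169.8 and 484 CPM in Lhx6 cells, so it was the lower in Adarb2 cells in 3 of 4 libraries.

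Lamp5, Ndnf, Reln and Kit of the 8-gene neurogliaform and Reln list lay above Lhx6 cells, while Npy and Nos1 were lower on average. The list summed to 3697, 2476, 2894 and 2562 CPM in Adarb2 cells. In Lhx6 cells it summed to 17246, 5727, 7017 and 1269 CPM, so Adarb2 cells were the higher in cKO 2 only. Lamp5, a lysosome-associated membrane protein, had the highest ratio to Lhx6 cells of the genes outside the rule that reached 50 CPM in every library, at 158, 76.1, 85.6 and 84.5 CPM against a mean of 3.17 CPM, or 31.8-fold. Ndnf, a secreted neurotrophic protein, was at 221, 213, 180 and 244 CPM, 10.8-fold above Lhx6 cells and 3.56-fold above all other cells, a class that also holds Cajal-Retzius cells. Reln was at 963, 754, 868 and 839 CPM, 2.64-fold above Lhx6 cells. Hapln1, a link protein of the extracellular matrix, was at 688, 381, 378 and 552 CPM, and Kit, a receptor tyrosine kinase, at 198, 100.2, 146 and 117 CPM. Sv2c, a synaptic vesicle protein, was at 119 CPM on average against 17.8 CPM.

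Cnr1 and Cck are shared by Cck basket cells and other caudal cells. Cnr1 was at 1331, 925, 1304 and 691 CPM, 5.99-fold above Lhx6 cells, and Cck at 682, 674, 697 and 264 CPM, 4.19-fold above them. Htr3a, the ionotropic serotonin receptor that marks most caudal interneurons, was at 30.2, 27.2, 41.0 and 29.3 CPM against 1.32 CPM in Lhx6 cells and 38.1 CPM in Meis2 Pbx3 cells. Among the 14 transmitter and trophic receptors listed, Erbb4, the neuregulin receptor, was 7.0-fold above all other cells, and the muscarinic receptor Chrm3 was 3.84-fold above them. Oxtr, the oxytocin receptor, was lower than in Lhx6 cells in all 4 libraries, at 5.21 against 28.3 CPM on average. Sncg and Calb2 were scarce, at 4.82 and 15.3 CPM on average, and Chat had a count in 0 of 749 Adarb2 cells (upper limit of the share 0.401%, from 3 counts).

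Genes of the medial lineage were low in these cells. Sst was at 6.53, 75.7, 41.0 and 20.5 CPM in Adarb2 cells and at 6461, 1752, 2972 and 278 CPM in Lhx6 cells, so that the ratio of means was 79.8. Satb1 was at 73.0 against 400 CPM, Sox6 at 35.5 against 165 CPM and Elfn1 at 26.0 against 142 CPM, each lower in all 4 libraries. Nos1, which is on the neurogliaform and Reln list, was also lower in all 4, at 9.59 against 182 CPM. Maf, a factor used by both lineages, differed less, at 235 against 399 CPM. The rule used Lhx6 alone of these genes.

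Genes of GABA handling and of the ventral lineage were present in these cells. Slc32a1 was at 138 CPM on average against 145 CPM in Lhx6 cells and 12.0 CPM in all other cells. The homeobox factors Dlx1, Dlx2 and Dlx5 were at 210, 154 and 96.2 CPM on average, above Lhx6 cells by 1.83-, 2.24- and 2.102-fold and in all 4 libraries. Slc12a5, the potassium chloride cotransporter that rises as neurons mature, was at 70.9 CPM against 139 CPM in Lhx6 cells, lower in 4 of 4 libraries. Sox4 and Sox11, factors of young neurons, were at 586 and 767 CPM against 435 and 585 CPM, higher in 4 of 4, and Rbfox3, a splicing factor of mature neurons, was also higher, at 229 against 116 CPM.

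**Figure D3:**
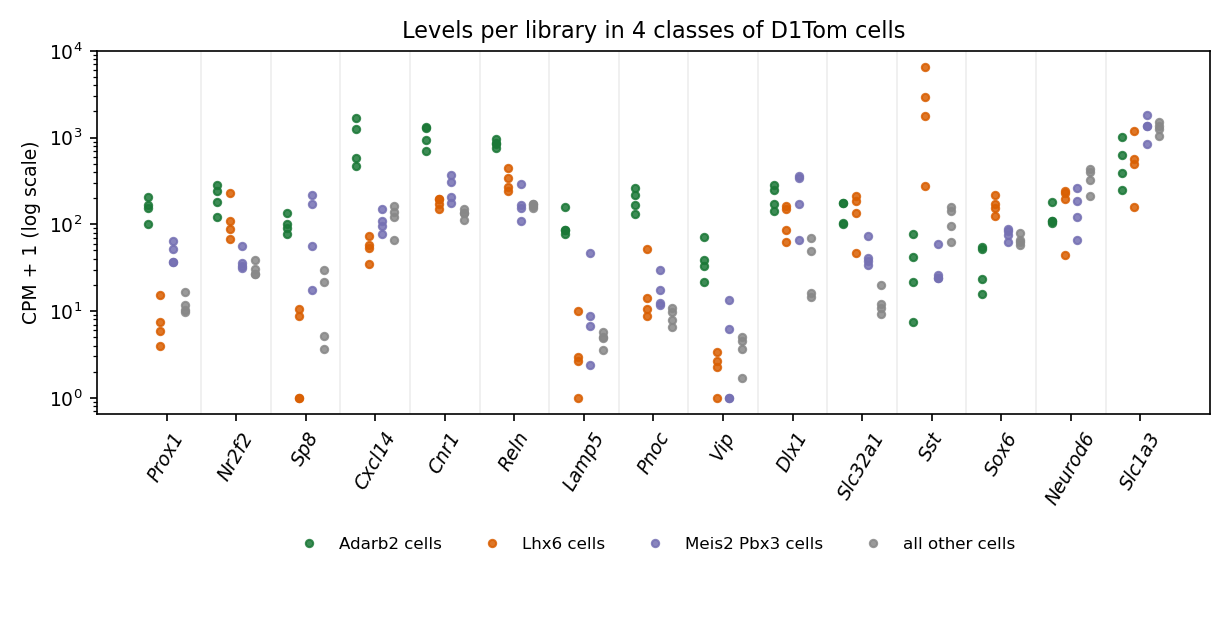
Level of selected genes (y axis, CPM + 1 of summed counts, log scale) in 4 classes of D1Tom cells, 1 point per library. Prox1, Cxcl14, Cnr1, Lamp5 and Pnoc lie higher in Adarb2 cells (green) than in Lhx6 cells (orange) in every library, and Sst and Sox6 lie lower.

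Shares of cells with a count were set beside those in an astrocyte-like cluster of 606 cells led by Gfap and Cd74. Its median was 10915 counts per cell against 11080 in Adarb2 cells. Whether counts of the genes below in that cluster come from its own cells, free RNA or mixed droplets was not tested. Prox1 had a count in 58.2% of Adarb2 cells (436 of 749), 6.52% of Lhx6 cells and 10.7% of the astrocyte-like cells. After each cell was thinned to 3000 counts, which left 697 Adarb2 cells, these shares were 36.7%, 3.31% and 3.795%, and the Adarb2 shares per library were 38.0%, 39.3%, 38.1% and 29.1%. Nr2f2 was found in 57.4% against 7.10% of the astrocyte-like cells, and Sp8 in 36.2% against 2.31%. Cxcl14 was found in 63.7% of Adarb2 cells but also in 52.3% of the astrocyte-like cells, and in 46.6% and 25.1% after thinning, so its share was less distinct than its level. Vip was found in 7.21% against 0.165%.

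The 535 Adarb2 cells of the caudal-origin-like cluster were split further to see which subtypes they resemble, as a description of the same cells. They formed 6 subclusters, and each library was represented in each. Subcluster 0, with 135 cells (48, 30, 38 and 19), was led by Lamp5, Ndnf, Npy and Hapln1 and had 6 of the 8 genes of the neurogliaform and Reln list at least 2-fold above the other subclusters, and is called neurogliaform-like. Folds between subclusters were taken after adding 5 CPM to both levels. Reln had a count in 96.3% of its cells, Kit in 93.3%, Ndnf in 91.9% and Lamp5 in 88.1%, while Vip had one in 1.48% and Tac2 in 0 of 135 (upper limit 2.22%). Reln averaged 2261 CPM and Npy 1901 CPM in these cells, and Sox11, at 417 CPM, was lower than in any of the other 5 subclusters, where it ran from 712 to 1099 CPM.

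Subcluster 5 was the smallest, with 36 cells (17, 5, 11 and 3), and was led by Vip, Tac2, Elfn1 and Crh. It had 7 of the 10 genes of the Vip list at least 2-fold higher and is called Vip-like. Crh had a count in 72.2% of its cells, Vip and Tac2 each in 63.9%, Synpr, a synaptic vesicle protein, in 83.3% and Prox1 in 97.2%, and Lamp5 and Ndnf in 0 of 36 (upper limit 8.33%). Elfn1, a gene of the medial list, was also among its leading genes, at 18.5-fold over the other subclusters.

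Subcluster 3, with 95 cells (37, 19, 30 and 9), had Cck, Cxcl14, Neto1 and Lmo1 among its leading genes and 4 of the 5 genes of the Cck Sncg list at least 2-fold higher, and is called Cck-like. Cck averaged 2441 CPM, Cnr1 3092 CPM and Cxcl14 4677 CPM, and Cxcl14 had a count in all 95 cells. Sp8 had a count in 80.0% of them, the highest share of the 6 subclusters.

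The other 3 subclusters were left unnamed. Subcluster 1 (112 cells: 39, 16, 48 and 9) was led by Igfbpl1 and Edaradd and also by the factors Sp9 and Sp8, with Sox11 at 1099 CPM. Subcluster 2 (110 cells: 36, 25, 30 and 19) was led by Aqp4 and Slc1a3, which are astrocyte genes at 6.61- and 6.49-fold over the other subclusters, and its Neurod6 was 3.41-fold higher too, while Reln was found in 75.5% of its cells. Whether these are mixed droplets was not tested. Subcluster 4 (47 cells: 17, 3, 25 and 2) was led by Cacng3 and Spint2, with Calb2 5.80-fold and Synpr 3.13-fold over the others, and all but 5 of its cells came from batch 1.

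**Figure D4:**
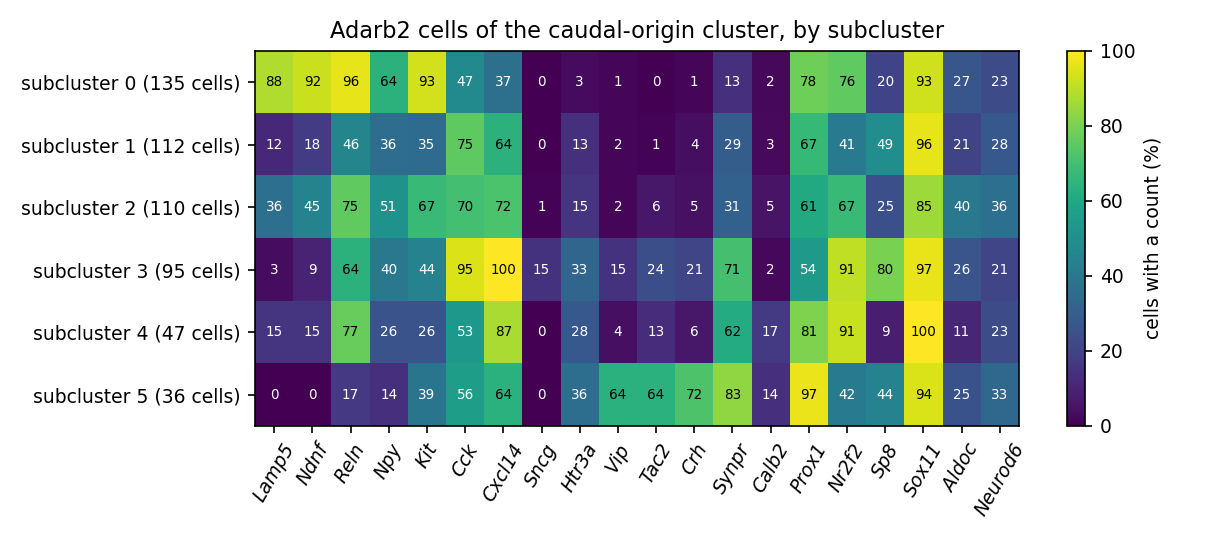
Share of cells with a count (colour and printed value, %) of selected genes (columns) in the 6 subclusters (rows) of Adarb2 cells of the caudal-origin-like cluster. Lamp5, Ndnf and Reln are most frequent in subcluster 0 (88%, 92% and 96%), but Reln is also in 76.6% of subcluster 4 and 75.5% of subcluster 2. Vip, Tac2 and Crh mark subcluster 5 (64%, 64% and 72%), and Cxcl14 is in all cells of subcluster 3.

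Pairs of genes within the 535 cells showed the same division. These are the cells and leading genes of the subclusters, so the pairs describe the division again and are no separate support for it. Of 45 cells with Vip, 32 also had Crh, 23 had Tac2 and 44 had Prox1, while 2 had Lamp5 and 2 had Ndnf. Of 182 cells with Lamp5, 160 had Ndnf, 178 had Reln and 161 had Kit. Cck was shared more widely: 271 of the 360 cells with Cck had Cxcl14, 245 had Reln and 99 had Lamp5.

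The share of Adarb2 cells was then compared between genotypes. They made up 7.08% of all cells in control 1 (exact binomial 95% interval 6.22 to 8.02), 6.81% in control 2 (5.83 to 7.89), 8.21% in cKO 1 (7.23 to 9.29) and 4.15% in cKO 2 (3.48 to 4.92). The intervals cover counting error only. The cKO libraries were thus the highest and the lowest of the 4, and the means were 6.94% ± 0.194 in controls and 6.18% ± 2.87 in cKO (SD, n = 2 libraries each; two-sided exact permutation p = 1.00, the smallest that 2 against 2 libraries can give being 0.333). In batch 1 the cKO library was 1.13 percentage points above its control and in batch 2 the difference was -2.65 points. Without cKO 2 the difference of means was 1.27 points, so its sign rests on that library. After thinning to 3000 counts per cell, which left out 349, 12, 331 and 149 cells of the libraries, the shares were 4.55%, 2.81%, 5.64% and 1.81%.

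Among the cells with Gad1 or Gad2, Adarb2 cells made up 41.3%, 25.8%, 31.3% and 13.7%. The batch 1 libraries were the higher in each genotype, and within each batch the cKO library was the lower, with differences of -10.01 percentage points in batch 1 and -12.03 points in batch 2. The means were 33.5% ± 10.98 and 22.5% ± 12.4 (SD, n = 2; difference -11.02 points, two-sided exact permutation p = 0.667), so the difference was of the size of the spread between libraries of a genotype. The denominator moved as well: the Gad cells numbered 550, 633, 739 and 933. Meis2 Pbx3 cells numbered 39, 62, 109 and 151 among them, and their part in the lower share was not tested. A sort for a reporter of the D1 receptor gene also sets which cells enter these shares.

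Gene expression in Adarb2 cells was compared between genotypes on the counts summed per library. The genes of interest to the study come first. Foxp2, the targeted gene, was at 18.5, 28.3, 32.7 and 22.5 CPM, so the groups overlapped (log2 fold change of cKO over control 0.26, SE 0.33, edgeR adjusted p = 1.00). It had a count in 10.4% of Adarb2 cells, below the 14.9% of the astrocyte-like cells. In Adarb2 cells of the caudal-origin-like cluster it was at 1.26, 17.0, 3.86 and 2.94 CPM and in 21 of 535 cells, and the 66 cells of the Igfbpl1 Sp9 cluster had it in 34.8%. Without the latter the log2 fold change was -1.12 (edgeR adjusted p = 1.00), the opposite direction. At this depth the table does not show whether Foxp2 differs in these cells.

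The symbol Drd1 is not used in the tables, and the entry written Drd is taken here for the D1 receptor gene. It was at 50.5, 77.3, 46.5 and 32.7 CPM in Adarb2 cells, both cKO libraries lying below both controls (means 63.9 ± 18.9 and 39.6 ± 9.77 CPM, SD, n = 2, log2 fold change -0.67, SE 0.30, edgeR adjusted p = 1.00). All other D1Tom cells had 66.8, 63.5, 25.5 and 20.4 CPM. In Adarb2 cells of the caudal-origin-like cluster Drd was at 41.5, 57.7, 48.6 and 41.2 CPM and the groups overlapped (log2 fold change -0.11). With all cells that carry Meis2 or Pbx3 left out it was 0.024, the opposite sign. Drd had a count in 30.3% of Adarb2 cells against 26.6% of Lhx6 cells and 8.91% of astrocyte-like cells.

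Sfxn1, a mitochondrial serine carrier, was at 1539, 1443, 1229 and 790 CPM, again with both cKO libraries below both controls (log2 fold change -0.55, SE 0.25, edgeR adjusted p = 1.00). Emx1, the gene whose promoter drives Cre, was at 4.81, 16.3, 2.76 and 5.45 CPM in Adarb2 cells, against 26.2, 26.6, 13.2 and 10.7 CPM in all other cells.

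Over all genes, edgeR's quasi-likelihood test called 0 of 11186 (0%) at an adjusted p under 0.05, with 161 under 0.05 unadjusted. DESeq2 called 2 (0.0179%, with 73 unadjusted), which were Nr4a2 and Igfbpl1. With the replicate number as a block, which compares cKO with control within each batch and leaves 1 residual degree of freedom, edgeR called 2 (0.0179%), mt-Co2 and Igfbpl1. Both cKO libraries lay above both controls for 11.4% of the genes and below for 13.2%, and these shares are the background for the counts that follow.

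Igfbpl1, an insulin-like growth factor binding protein relative expressed by young neurons, was at 79.0, 43.1, 234 and 149 CPM (means of the genotypes 61.0 ± 25.4 and 192 ± 60.1, SD, n = 2). The groups did not overlap. Its log2 fold change of 1.67 (SE 0.32) had an adjusted p of 1.00 by edgeR, 0.00702 by edgeR with the block and 0.0287 by DESeq2. The log2 fold change was smaller under other rules on cells: 1.22 without the Igfbpl1 Sp9 cluster, 1.06 with Meis2 or Pbx3 cells left out, 0.76 under a stricter rule (5 Gad and 3 Adarb2 counts) and 0.47 with cells that carry genes of other types left out. Cells of the Igfbpl1 Sp9 cluster were 9 of 227, 7 of 163, 19 of 231 and 31 of 128 Adarb2 cells, so their share was higher in both cKO libraries. The part of these cells in the Igfbpl1 difference was not tested. Within the caudal-origin-like cluster Igfbpl1 was at 59.5, 37.7, 183 and 61.8 CPM, so that cKO 2 hardly exceeded control 1 (log2 fold change 1.36, edgeR adjusted p = 1.00, and 3.51e-08 with the block). In Lhx6 cells it was at 33.1, 20.7, 17.9 and 23.9 CPM. The difference of the genotype effect between the 2 classes, 2.20 on the log2 scale, had an edgeR adjusted p of 0.414.

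mt-Co2, the mitochondrial gene of cytochrome oxidase subunit 2, was at 56.3, 198, 3.55 and 16.4 CPM, with both cKO libraries far below both controls. It fell by 3.68 on the log2 scale with the block (edgeR adjusted p = 0.000606), while the fit without it gave -3.79 (SE 0.81) and an adjusted p of 1.00. With 1 library left out that adjusted p was 0.000542 without control 1, 0.0433 without control 2, 0.655 without cKO 1 and 0.132 without cKO 2. Lhx6 cells showed the same order, at 59.5, 235, 5.97 and 28.7 CPM. Not all mitochondrial transcripts shared it. mt-Atp6 was at 665, 365, 1044 and 1206 CPM and mt-Co1 at 511, 774, 1147 and 1124 CPM, both higher in the cKO libraries, and mt-Nd1 was at 10370.0, 15521, 11347 and 17902 CPM with overlapping groups.

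Nr4a2, an orphan nuclear receptor of deep layer and subplate neurons, had 0, 2, 63 and 18 counts in the libraries (edgeR adjusted p = 1.00, DESeq2 adjusted p = 0.0287). In the caudal-origin-like cluster it was at 0, 0, 1.66 and 8.83 CPM, so most of its counts in cKO 1 came from Adarb2 cells of other clusters.

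Of the other genes with the smallest unadjusted p, none passed any of these 3 tests. Cdca7, a gene of dividing and newborn cells, was at 12.4, 12.4, 33.1 and 60.7 CPM, and Abracl was at 52.6, 63.3, 117 and 127 CPM. Without the Igfbpl1 Sp9 cluster the log2 fold change was 0.95 in place of 1.93 for Cdca7 and 0.057 in place of 1.09 for Abracl, which was at 39.8, 43.6, 55.7 and 45.6 CPM in the caudal-origin-like cluster. Sfrp1, a secreted Wnt modulator, was at 10.99, 15.9, 35.1 and 25.9 CPM. Ptprk, a receptor tyrosine phosphatase, was at 75.6, 74.2, 40.2 and 40.2 CPM, but at 23.5, 29.6, 18.8 and 29.4 CPM within the caudal-origin-like cluster. Rnf152 was at 99.9, 96.7, 59.96 and 57.3 CPM and Shisa6 at 37.8, 40.4, 22.1 and 19.1 CPM. Vwc2l was at 10.99, 11.6, 1.97 and 3.41 CPM and Efs at 7.90, 5.82, 18.5 and 17.7 CPM. Hist1h1c was at 9.96, 10.1, 21.3 and 25.9 CPM and Cdk5rap2 at 4.81, 5.05, 16.6 and 12.3 CPM. For Rnf152 and Shisa6 both cKO libraries also lay below both controls within the caudal-origin-like cluster, at 102, 107, 71.2 and 72.1 CPM and at 43.6, 34.8, 25.4 and 25.0 CPM. Cdca7, Abracl, Sfrp1, Vwc2l, Hist1h1c and Cdk5rap2 kept the order of the groups there too, while Ptprk and Efs did not. Over all genes tested in that cluster, both cKO libraries lay above both controls for 11.7% and below for 13%. The genes were picked by their p in all 749 Adarb2 cells, of which these are 535, so the order there is no separate support.

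**Figure D5:**
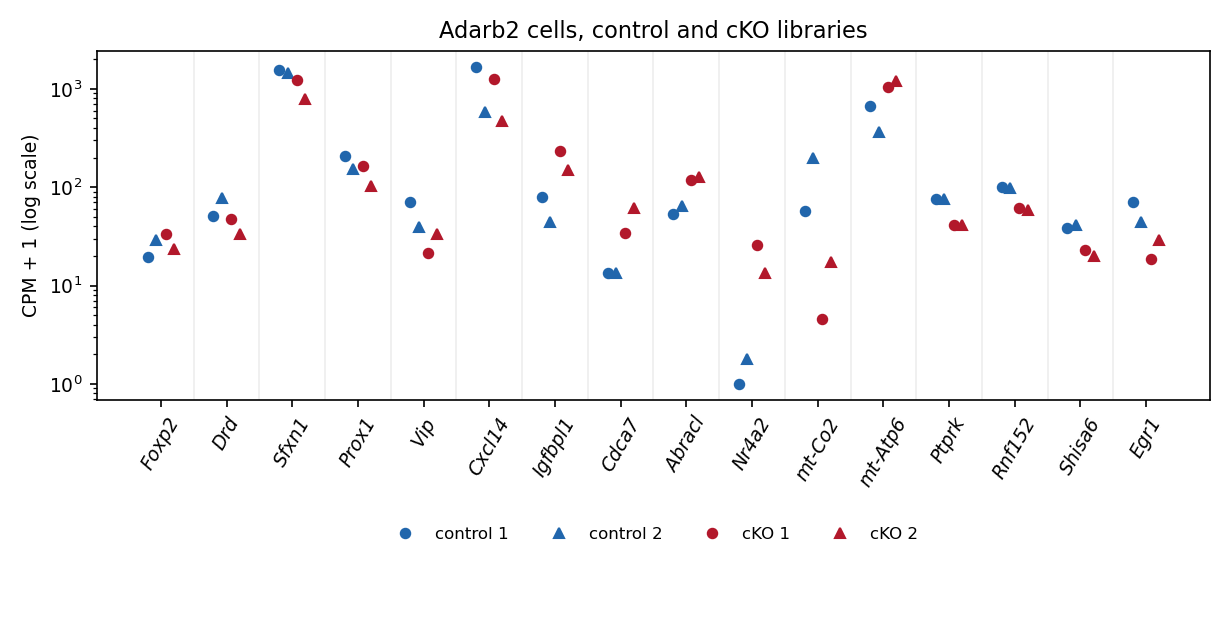
Level of selected genes (y axis, CPM + 1 of the summed counts of Adarb2 cells, log scale) in control (blue) and cKO (red) libraries, with circles for batch 1 and triangles for batch 2. Foxp2, Cxcl14 and Prox1 overlap between genotypes, Igfbpl1 (79.0 and 43.1 against 234 and 149 CPM) lies higher in both cKO libraries and mt-Co2 (56.3 and 198 against 3.55 and 16.4 CPM) lies lower.

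The markers of the cell type were summarised as groups. None of the 6 given markers passed edgeR's threshold or the block. Adarb2, Gad1 and Gad2 among them chose the cells, so nothing is read from the list as a whole. All 6 had a negative log2 fold change, with a median of -0.29 against -0.00071 over all genes tested, and for 1 of them, Vip, both cKO libraries lay below both controls. Within the caudal-origin-like cluster the median was -0.10, and both cKO libraries lay below for 2 of the 6, where 13% of all genes did so. Vip was at 70.4, 38.1, 20.5 and 32.0 CPM (log2 fold change -1.04, SE 0.39, edgeR adjusted p = 1.00). Within the caudal-origin-like cluster it was at 82.1, 62.1, 27.6 and 61.8 CPM, and the 128 Adarb2 cells of cKO 2 included 3 of the Vip-like subcluster. With cells that carried genes of other types left out, its log2 fold change was 0.88, the opposite sign. Prox1 (log2 fold change -0.42, SE 0.26) and Cxcl14 (-0.40, SE 0.54) overlapped between genotypes.

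Of the 16 caudal origin genes 6 were higher and 10 lower in the mean, with 3 above and 2 below in both cKO libraries and a median log2 fold change of -0.17. Within the caudal-origin-like cluster the median was 0.0068. Reln was at 963, 754, 868 and 839 CPM and Ndnf at 221, 213, 180 and 244 CPM, with log2 fold changes of 0.02 (SE 0.22) and -0.01 (SE 0.24). Sp8 (0.52, SE 0.22), Calb2, at 11.7, 6.21, 17.4 and 25.9 CPM, and Sncg, at 1.03, 3.11, 11.04 and 4.09 CPM, were the 3 above. In the neurogliaform and Reln list 7 of 8 genes were lower in the mean and for 0 of them did both cKO libraries lie above, or both below, the controls, with a median of -0.22. The Vip list had 3 genes higher and 6 lower of 9 tested, with a median of -0.46. Within the caudal-origin-like cluster the median was -0.018 for the neurogliaform and Reln list and -0.24 for the Vip list.

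Of 7 interneuron lineage factors tested 6 were higher in the mean, with a median log2 fold change of 0.35 and 2 of them above both controls in both cKO libraries. Sp9, which is among these, was at 57.7, 33.8, 73.8 and 84.5 CPM (log2 fold change 0.81, SE 0.30, edgeR adjusted p = 1.00). The share of Igfbpl1 Sp9 cluster cells was higher in both cKO libraries too, and its part in these values was not tested. In the caudal-origin-like cluster alone the list's median was 0.21, with Sp9 at 58.2, 38.5, 60.1 and 67.7 CPM. GABA handling genes had a median of -0.18, with 2 of 7 above and 2 below in both cKO libraries. Within the caudal-origin-like cluster their median was 0.095, the opposite sign. Gad1 and Gad2 are on this list and chose the cells, so nothing is read from it as a whole. Slc32a1 was at 175, 103, 173 and 98.9 CPM (log2 fold change -0.02, SE 0.32).

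Genes of other cell types varied between the libraries. All 6 astrocyte genes were higher in the mean in cKO, with a median log2 fold change of 0.77, and their summed level was 472, 1062, 724 and 1681 CPM, so the groups overlapped, the batch 2 libraries were the higher in each genotype, and the cKO library was above its control within each batch. Within the caudal-origin-like cluster the median was -0.07. The 7 excitatory genes summed to 229, 564, 291 and 303 CPM and the 6 oligodendrocyte lineage genes to 200, 597, 377 and 779 CPM, the latter again higher in cKO within each batch, with no listed gene at 0. The part of these cells in the genotype values above was not tested.

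All 6 dissociation genes that could be tested were lower in the mean in cKO, with a median log2 fold change of -1.40. Fos, an immediate early gene, stood at 221, 21.4, 24.9 and 23.9 CPM and was high in control 1 alone. Egr1 was at 69.7, 43.5, 17.8 and 28.0 CPM, and at 41.9, 22.2, 3.31 and 11.8 CPM in the caudal-origin-like cluster. It was thus lower in cKO within each batch. With only Adarb2 cells of the caudal-origin-like cluster and the block, edgeR called 13 of 9991 genes (0.13%), and 5 of them were Fos, Junb, Jun, Egr1 and Ier2. The 13 also held the mitochondrial genes mt-Co2, which had the smallest p, mt-Atp6, mt-Co3 and mt-Co1, and Igfbpl1. In that cluster both cKO libraries lay below both controls for 6 of 6 dissociation genes, where 13% of all genes did so and 11.7% lay above. Fos there was at 176, 10.4, 8.83 and 10.3 CPM (block log2 fold change -3.63, edgeR adjusted p = 2.69e-27), so its difference lay in batch 1 and not in batch 2. Without the block edgeR called 0 genes in the cluster, with 116 under 0.05 unadjusted.

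To ask whether the genotypes differ in another way in Adarb2 cells than in Lhx6 cells, the interaction of class and genotype was tested over 10149 genes. edgeR called 0 of them (0%), with 506 under 0.05 unadjusted, and DESeq2 called 0, with 87 unadjusted. The 5 genes with the smallest p were Nnat, Zbtb18, Abracl, Igfbpl1 and Cldn5, each with an edgeR adjusted p of 0.414. Nnat, an imprinted gene of developing neurons, was at 854, 546, 1236 and 783 CPM in Adarb2 cells and at 2353, 1058, 1597 and 802 CPM in Lhx6 cells, an interaction of 1.03 on the log2 scale. Abracl was higher in both cKO libraries in Adarb2 cells and, at 109, 94.3, 78.6 and 45.5 CPM, lower in both in Lhx6 cells, but its log2 fold change in Adarb2 cells was 0.057 without the Igfbpl1 Sp9 cluster, 0.069 with Meis2 or Pbx3 cells left out and 0.020 with cells that carry genes of other types left out. Drd had an interaction of 0.28 (edgeR adjusted p = 0.974). The Lhx6 sums rest on 39 to 59 cells per library.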

How the data were processed

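Single-cell RNA-seq was made from FACS-sorted cells with a 10x Genomics Chromium 3' kit, per the labels' protocols. The authors deposited UMI counts as 1 table per sort (D1Tom: 17836 genes by 11494 cells), and the deposited cell table (library names) gave each cell's library. The submitters' processing notes name the builds mm10 and GRCm38.p6 and bcl2fastq 2.17.1.14, Cell Ranger 2.1.1, FastQC 0.11.5, UMI-tools 0.5.4, STAR 2.5.2b, featureCounts of Subread 1.6.2 and SAMtools 1.6, with no role or order. Every deposited count was a whole number, and 0 cells had a total unlike the deposited one.

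Cells were chosen by counts of Gad1, Gad2, Adarb2, Lhx6, Meis2 and Pbx3, with no other filter on cells. The cells, gene lists and rules were chosen with earlier results of these data known. Counts were summed per library and tested, 2 libraries against 2, with edgeR 4.0.16 in R 4.3.3 (quasi-likelihood test, TMM, filterByExpr, Benjamini-Hochberg at 0.05). DESeq2 1.42.0, the replicate block, other rules on cells and leaving out each library were alternatives. The interaction of class and genotype was fitted with the library as a block. The scripts were tested on simulated data. Same-numbered libraries share a batch per the labels, so the numbers pair them, and their deviations from the group means correlate at 0.461 over 11186 genes.

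All D1Tom cells were clustered with scanpy 1.11.5 (2000 variable genes standardised within each library, 30 principal components, 20 neighbours, Leiden at resolution 1), and the names were rebuilt here. Doublets were scored with the Scrublet method; the highest scores, 0.8% per 1000 cells of a library, marked 28 Adarb2 cells, which were kept except in an alternative. Genes were named from sets fixed by rule: the markers and listed genes, the reporter and target genes, the 15 smallest p of the genotype test and 5 of the interaction, calls of DESeq2 or the block, and the highest and lowest ratios to Lhx6 cells and to other cells at 50 CPM or more in every library. Not every gene of the lists and ratio sets is named.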

Additional observations from a re-analysis of the deposited data

How the results depend on the processing

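The count of genes called between genotypes in Adarb2 cells, 0 by edgeR, was 2 by DESeq2, 10 with no filter on low counts, 2 with the replicate block, 1 with cells that carry genes of other types left out, and 1 to 12 when 1 library was left out. It was 12 without control 2, 5 without control 1, 3 without cKO 1 and 1 without cKO 2, and the lone library of a genotype is then assumed to vary like the other pair. It stayed 0 with doublets left out, under the stricter rule (5 Gad and 3 Adarb2 counts), with Meis2 or Pbx3 cells left out, in the caudal-origin-like cluster alone and without the Igfbpl1 Sp9 cluster. The cluster alternatives were chosen after seeing the data, and in the cluster with the block the count was 13. The interaction count, 0, was 35 with no filter on low counts, 1 with Adarb2 cells of the caudal-origin-like cluster only, and 3 to 26 when 1 library was left out (3 without control 1, 12 without control 2, 26 without cKO 1, 10 without cKO 2). The stricter rule left no Lhx6 cell in cKO 2 and was not run for it. The difference in the share among all cells, -0.76 points, was 1.13 in batch 1 alone, -2.65 in batch 2 alone, 0.044 after thinning, -20.06 with cells that carry genes of other types left out of both numbers, and -2.79 to 1.27 when 1 library was left out. Among Gad cells it stayed negative throughout, from -19.8 to -2.25 when 1 library was left out. The causes of these changes were not tested.

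For single genes, the log2 fold change turned to -0.20 for Cdca7, 0.88 for Vip, 0.096 for Prox1 and 0.050 for Cxcl14 with cells that carry genes of other types left out, an alternative that kept 234 Adarb2 cells and 9 in cKO 2. Cxcl14 turned to 0.53 without control 1 and 0.10 without cKO 2, with a range of -1.19 to 0.53 when 1 library was left out. Foxp2 turned to -0.033 without control 1, with a range of -0.033 to 0.62 when 1 library was left out, and to -1.12 without the Igfbpl1 Sp9 cluster, and Drd to 0.024 with Meis2 or Pbx3 cells left out. The block changed the call of mt-Co2 and Igfbpl1 over all Adarb2 cells and no other call there. Adjusted p over the alternatives ran from 3.51e-08 to 1.00 for Igfbpl1, with 5 under 0.05, from 5.10e-36 to 1.00 for mt-Co2, with 6, and from 2.70e-05 to 1.00 for Nr4a2, with 3. In the block fit of 4 libraries 1 degree of freedom is left, so such p-values rest on the spread shared across genes. Of the cells chosen with a single Adarb2 count 26.2% lay in the caudal-origin-like cluster.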

Other observations

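Several genes outside the comparisons above were high in Adarb2 cells. Cryab, a small heat shock protein, was at 349, 211, 253 and 139 CPM against 24.3 CPM on average in Lhx6 cells, and the long transcript 2900055J20Rik at 573, 323, 609 and 183 CPM against 88.7 CPM. Adra1b, an adrenergic receptor, was at 146, 76.9, 102 and 54.5 CPM against 23.3 CPM. Spock3 and the kainate receptor subunit Grik1 were high in both interneuron classes: Spock3 was at 210 CPM in Adarb2 cells and 130 CPM in Lhx6 cells, and Grik1 at 114 and 119 CPM, against 26.97 and 20.7 CPM in all other cells. Klf5, Lypd6 and Grin3a were the low ones, at 9.17, 21.8 and 103 CPM against 120, 148 and 459 CPM in Lhx6 cells.

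Of the 6 cells of the GTE sort that met the rule, 3 came from GTE cKO 1 and 3 from GTE cKO 2. Together they had Prox1 at 117 CPM and Cnr1 at 254 CPM, no count of Reln, Dlx1 or Slc32a1, and Neurod6 at 97.8 CPM, and their median count was 7121 against 1302 over all GTE cells.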
